A study of Rattus norvegicus with 18 samples.

Results

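The genes described here carry iron, sense it or set the hepatic output of hepcidin, the hormone of body iron. They are Hamp, Slc40a1, Tf, Tfrc, Tfr2, Hfe, Bmp6, Id1, Fth1 and Ftl1. They were chosen by symbol, and the 10 symbols matched 11 of the 32623 gene rows of each table, because Slc40a1 was listed in 2 rows. All 11 rows passed the filter on low counts. The liver of male Wistar rats was sequenced as a single mRNA library per rat, with 6 rats per group. Control rats received chow and normal drinking water for 12 weeks. NASH rats were exposed for 6 weeks to inhaled CCl4, which is toxic to hepatocytes, while their drinking water held phenobarbital, and then had 4 weeks of a diet rich in fat and cholesterol (HFCD), 10 weeks in all. NASH-CH rats had CCl4 and phenobarbital throughout 24 weeks, with the HFCD added for the final 16 weeks. CCl4, phenobarbital, diet, age and duration changed together between the groups, so that their parts cannot be told apart.

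Hepcidin, the product of Hamp, is a peptide that hepatocytes secrete into blood. It binds ferroportin, the only known cellular iron exporter and the product of Slc40a1, and causes its degradation, so that less iron leaves macrophages, enterocytes and hepatocytes. Hamp transcription is driven by iron through BMP6, hemojuvelin and SMAD proteins, and by inflammation through IL-6 and STAT3. Transferrin carries iron in plasma, its receptors and HFE take part in uptake and in sensing, and ferritin stores iron inside the cell.

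The promoter of Hamp is shown because these signal arms meet on it. In the RefSeq table of the GRCr8 assembly, 7 of the 10 symbols had a promoter sequence, and Fth1, Ftl1 and Hfe had none. The 250 bases before the transcription start were searched on both strands for GGCGCC, the core of the BMP response element, and for TTCNNNGAA, the core of a STAT site. The letters do not overlap between the motifs, and each motif reads the same on either strand. The stretch of Hamp lies on the minus strand at chr1:95300332-95300451 and covers positions -180 to -61 from the start. The stretch of Tfrc, shown for comparison, lies on the minus strand at chr11:81690399-81690478 and covers positions -160 to -81. Capitals mark the motif matches.
Hamp: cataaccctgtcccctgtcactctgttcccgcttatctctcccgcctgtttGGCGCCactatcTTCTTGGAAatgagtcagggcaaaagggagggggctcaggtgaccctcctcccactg
Tfrc: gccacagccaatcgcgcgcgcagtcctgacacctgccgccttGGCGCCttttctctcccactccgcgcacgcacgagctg
Hamp held GGCGCC at positions -129 to -124 and the STAT letters at -117 to -109. GGCGCC occurred in 8.69% of 33469 rat promoters of that length, the STAT letters in 7.67% and both in 0.379%. Tfrc held GGCGCC alone, at positions -118 to -113, and the searched stretches of Tf, Tfr2, Slc40a1, Bmp6 and Id1 held neither. These are matches of letters, not sites shown to be bound.

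Total expected counts per rat ran from 19498534 to 27174015 in the control group, from 20827770 to 29491947 in the NASH group and from 44680344 to 60117822 in the NASH-CH group. The greater depth of every NASH-CH library cannot be told apart from the condition. Values are given as CPM, which are counts scaled to the size of each library by the TMM method and not corrected for gene length, so that levels are compared between rats and not between genes. Differences are log2 fold changes from a single limma-voom fit of all 18 rats, with p-values adjusted over 12904 genes by the Benjamini-Hochberg method and a threshold of 0.05. Intervals are 95% confidence intervals without adjustment. Of 8 hepatocyte markers, Alb, Ttr and Apoa1 fell in NASH-CH, where 17.0% of all genes passed, and Apoa1 in NASH, where 3.12% did. The others did not pass, and Cps1, Tat and Hnf4a had log2 fold changes of 0.15, 0.41 and -0.0083 in NASH-CH. The summed level of the 8, most of it Alb, ran from 109780 to 154640 CPM in control, 71822 to 116550 CPM in NASH and 55416 to 111600 CPM in NASH-CH livers. Of 8 stellate cell markers Lrat fell in either model, and Col1a1 and Des rose in NASH-CH. Col1a1, Col3a1 and Des of these 8, and Spp1 of 4 cholangiocyte markers tested, were higher in NASH-CH than in NASH livers. In that comparison 4.20% of all genes passed. In whole liver, fewer cells of a type and less RNA per cell cannot be told apart.

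Few of these iron genes passed the test in any comparison. Against control, 0 of the 11 rows passed the test in NASH, where 3.12% of all genes tested did, and their median log2 fold change was 0.19. In NASH-CH, 1 of 11 passed, Slc40a1, which rose, where 17.0% of all genes passed in either direction and 8.38% upward, and the median was 0.28. The median over all genes was 0.0072 and 0.013 in these comparisons. Between NASH-CH and NASH rats 0 of 11 passed, where 4.20% of all genes did, and the median was 0.022. In the comparison of NASH with control, edgeR and DESeq2 also called 0 members, and without adjustment limma-voom gave 1 row under 0.05, Slc40a1. In NASH-CH against control, edgeR called 1 member and DESeq2 called 2, and limma-voom without adjustment gave 4 rows under 0.05. Between the models, edgeR, DESeq2 and limma-voom without adjustment all gave 0. Over all 12904 genes, limma-voom without adjustment gave 2776 under 0.05 in NASH, 4085 in NASH-CH and 2254 between the models. Unadjusted counts of the lists below are to be read beside these numbers. The groups overlapped for every member in every comparison. How many of all genes overlapped in this way is not given here, so this is not read as particular to the iron genes.

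**Figure D1:**
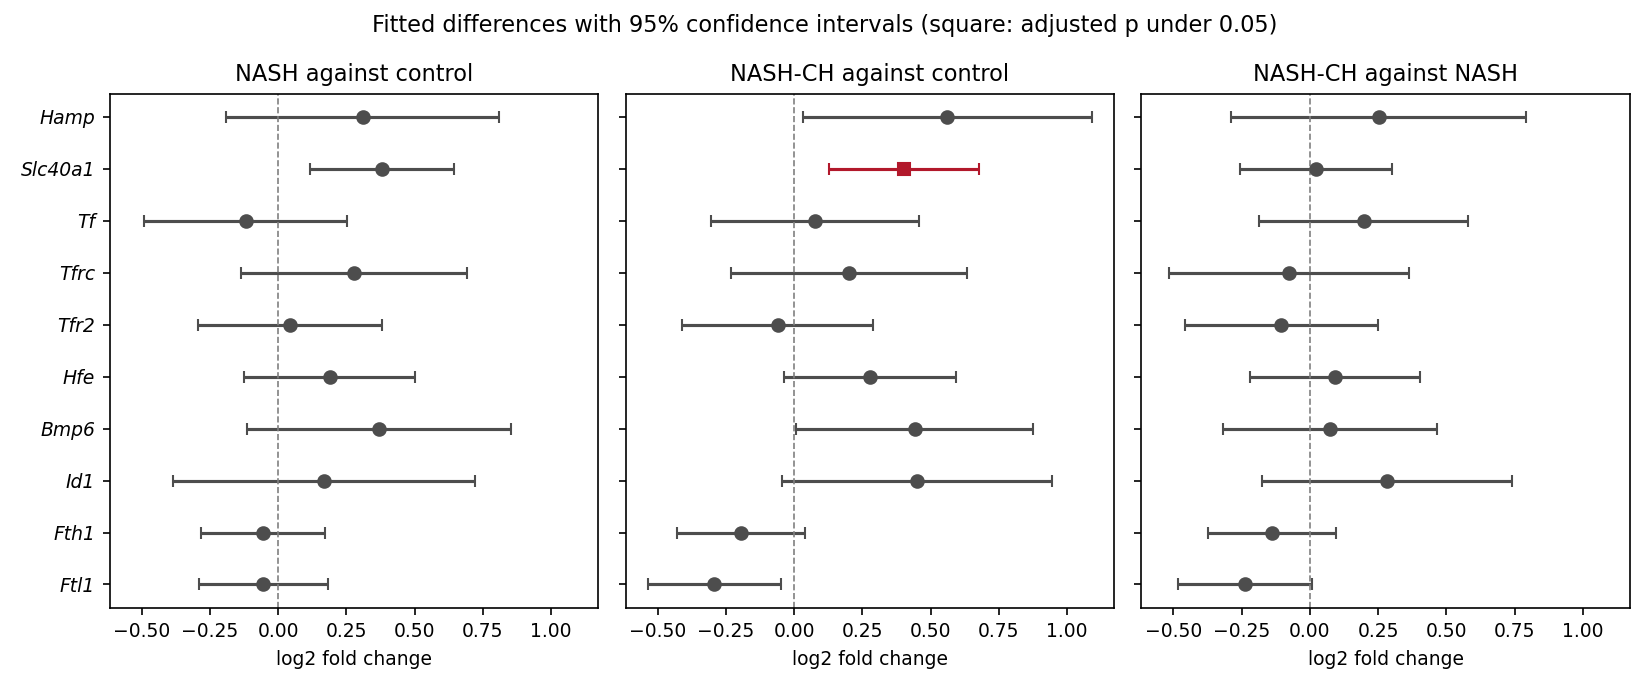
Log2 fold change (x axis) of each gene (y axis) in the 3 comparisons, from 6 rats per group. Points are fitted differences and bars 95% confidence intervals without adjustment. The square marks Slc40a1 in NASH-CH against control (0.40), which passed the test, and circles mark genes that did not. The sparse second row of Slc40a1 is left out.

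Hamp (ENSRNOG00000021029) ranged widely within each group. It lay between 61.0 and 184 CPM in control livers (median 105), between 104 and 174 CPM in NASH livers (median 128) and between 88.3 and 229 CPM in NASH-CH livers (median 169). NASH-CH rats 3 and 4 exceeded every control rat, while NASH-CH rat 5 lay below the control median. Hamp averaged 131.6 ± 23.2 CPM in NASH livers and 112 ± 42.4 CPM in control livers (± SD, n = 6), and the fitted log2 difference of 0.31 (SE 0.24) did not pass the test (adjusted p = 0.485). It was 163 ± 56.4 CPM in NASH-CH livers, 0.56 above control on the log2 scale (SE 0.25, interval 0.033 to 1.09), with an unadjusted p of 0.0387 in limma-voom and an adjusted p of 0.134. The fit calls no change in Hamp, and its interval reaches from near 0 to over a doubling. Scaling by library size alone moved the NASH-CH value to 0.81 (adjusted p = 0.0253), and over the 11 alternatives the adjusted p ran from 0.0253 to 0.213. That scaling moves the median of all genes to 0.27 in this comparison, and to 0.23 in the comparison of NASH with control.

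Slc40a1, the iron exporter, was the member that rose in NASH-CH livers. Its row ENSRNOG00000003872 lay between 33.3 and 55.9 CPM in control livers (median 37.4), between 40.8 and 62.8 CPM in NASH livers (median 51.5) and between 45.1 and 58.9 CPM in NASH-CH livers (median 52.7). The highest control value belonged to rat 5. The other 5 control rats lay between 33.3 and 38.5 CPM, below every NASH and every NASH-CH rat. The mean was 39.8 ± 8.13 CPM in control, 51.5 ± 7.82 CPM in NASH and 52.2 ± 6.55 CPM in NASH-CH livers (SD, n = 6). Slc40a1 rose 1.32-fold in NASH-CH, or by 0.40 on the log2 scale (SE 0.13, interval 0.13 to 0.68, limma-voom adjusted p = 0.0421), and all 6 NASH-CH rats lay above the control mean. In NASH the log2 fold change was 0.38 (SE 0.13) with an adjusted p of 0.0947, and all 6 rats again lay above the control mean. Of 11 alternatives, library size scaling alone called it (0.60, adjusted p = 0.0277). NASH-CH and NASH livers differed by 0.022 (interval -0.26 to 0.30).

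The call for Slc40a1 in NASH-CH was close to the threshold. Over 11 alternatives its adjusted p ran from 0.0053 to 0.0700, and 4 of them ended the call. These were the fit of the 2 groups alone (0.0638), sample quality weights (0.0631), a replicate block (0.0700) and NASH-CH counts thinned to the control depth (0.0554). Of 18 fits that each left out 1 rat, 10 ended it, with adjusted p from 0.0083 to 0.103. These were the fits without control rats 1, 2, 3, 4 or 6, NASH rats 2 or 6, or NASH-CH rats 4, 5 or 6. The log2 fold change stayed between 0.35 and 0.50 in these 18 fits. Without control rat 5 it was 0.50 (adjusted p = 0.0083), and the NASH value became 0.48 and passed as well (adjusted p = 0.0366). Macrophages also express Slc40a1. Of 7 macrophage markers tested, 5 fell in NASH-CH (Cd163, Marco, Clec4f, Vsig4 and Cd5l), where 17.0% of all genes passed in either direction. Cd68 and C1qa did not pass there. In NASH 1 fell (Marco), where 3.12% of all genes passed. The summed level of the list ran from 248 to 479 CPM in control, 187 to 281 CPM in NASH and 154 to 247 CPM in NASH-CH livers. By staining, the study counted more CD68-positive and CD163-positive macrophages in NASH-CH than in control livers. The part of macrophages in the result was not tested. The second row of Slc40a1, ENSRNOG00000049995, was at 0 in 4 control, 2 NASH and 3 NASH-CH rats and reached at most 3.29 CPM, and it did not pass in any comparison. Expected counts can be split between 2 rows of the same symbol. With the rows summed, the NASH-CH value was 0.41 (adjusted p = 0.036).

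**Figure D2:**
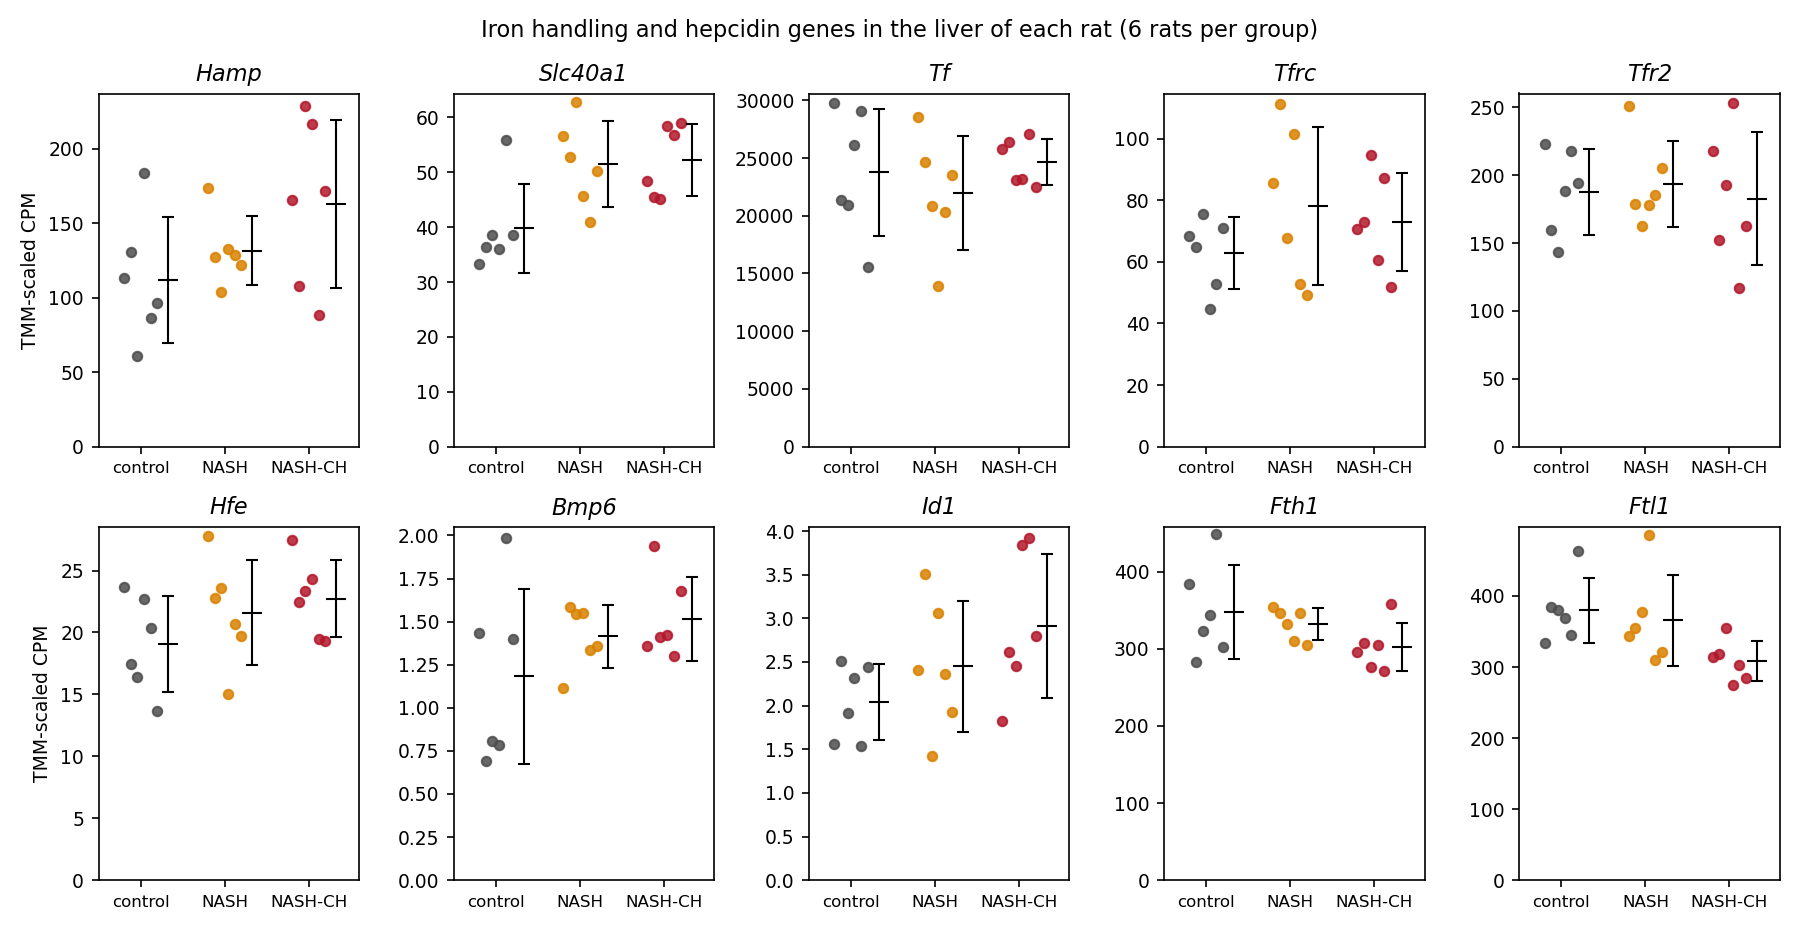
TMM-scaled CPM (y axis, from 0) of 10 genes in control, NASH and NASH-CH livers (x axis). Each point is a rat, in the order of rats 1 to 6, and the black dash and bars give the mean ± SD of 6 rats. For Slc40a1, 5 of 6 control rats sit at or under 38.5 CPM and the other at 55.9 CPM, and for Ftl1 5 of 6 NASH-CH rats sit below every control rat. The groups overlap for every gene.

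The genes of iron transport and sensing showed no call. Tf (ENSRNOG00000030625) encodes transferrin, which hepatocytes secrete. It lay between 15521 and 29793 CPM in control, 13904 and 28563 CPM in NASH and 22496 and 27043 CPM in NASH-CH livers. The NASH-CH rats stood closer together than the others, with an SD of 1973 CPM beside 5504 CPM in control and 4948 CPM in NASH livers, a spread that was not tested. The log2 fold changes were -0.12 in NASH and 0.077 in NASH-CH, each with an interval across 0 (-0.49 to 0.25 and -0.31 to 0.46).

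Tfrc (ENSRNOG00000001766) encodes transferrin receptor 1, whose mRNA is stabilised when cells lack iron. It lay between 44.6 and 75.5 CPM in control, 49.2 and 111 CPM in NASH and 51.9 and 94.6 CPM in NASH-CH livers. NASH rats 1, 2 and 4 and NASH-CH rats 3 and 5 exceeded every control rat, and the remaining rats lay within the control range. Tfrc was higher than control by 0.28 on the log2 scale in NASH (interval -0.14 to 0.69, adjusted p = 0.441) and by 0.20 in NASH-CH (interval -0.23 to 0.63, adjusted p = 0.532), and neither passed.

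Tfr2 (ENSRNOG00000001407) encodes transferrin receptor 2, a sensor of iron-loaded transferrin on hepatocytes. It lay between 143 and 223 CPM in control, 162 and 251 CPM in NASH and 117 and 253 CPM in NASH-CH livers. The lowest and the highest of all 18 values were both from NASH-CH rats. Its log2 fold changes were 0.044 in NASH and -0.061 in NASH-CH, the latter positive with library size scaling (0.19) and with sample quality weights (0.071). Hfe (ENSRNOG00000016967) encodes the membrane protein that is mutated in the common form of hereditary hemochromatosis. It lay between 13.7 and 23.7 CPM in control, 15.1 and 27.8 CPM in NASH and 19.3 and 27.5 CPM in NASH-CH livers. All 6 NASH-CH rats lay above the control mean of 19.1 CPM, with a fitted difference of 0.28 on the log2 scale (SE 0.15, adjusted p = 0.212), and NASH livers gave 0.19 (adjusted p = 0.502). With library size scaling Hfe passed in NASH (0.41, adjusted p = 0.0462), and NASH-CH gave 0.53 (adjusted p = 0.0043), while in the other 10 alternatives it did not pass.

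Bmp6 and Id1 stand at either end of the BMP signal. Bmp6 (ENSRNOG00000013717) encodes the ligand, which liver sinusoidal endothelial cells make when iron is plentiful. It was a low gene, with 16 to 40 counts per control library. It lay between 0.694 and 1.98 CPM in control, 1.11 and 1.59 CPM in NASH and 1.30 and 1.94 CPM in NASH-CH livers. The control rats lay apart from each other, with rats 2, 3 and 4 at or under 0.808 CPM and rats 1, 5 and 6 at or above 1.40 CPM. Bmp6 was higher than control by 0.37 in NASH (SE 0.23, adjusted p = 0.368), and NASH-CH livers gave 0.44 (SE 0.21, interval 0.0082 to 0.88, adjusted p = 0.150), both on the log2 scale and neither passing. With library size scaling the NASH-CH value was 0.68 and passed (adjusted p = 0.0302), in 1 of 11 alternatives. Of the endothelial markers, 0 of 7 tested passed against control in either model (2 without adjustment in each), beside 3.12% of all genes in NASH and 17.0% in NASH-CH. Between the models 1 of the 7 passed, Stab1, which was lower in NASH-CH than in NASH livers, beside 4.20% of all genes.

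Id1 (ENSRNOG00000021750) encodes an inhibitor of differentiation and is a direct target of SMAD proteins. It lay between 1.54 and 2.51 CPM in control, 1.43 and 3.51 CPM in NASH and 1.82 and 3.92 CPM in NASH-CH livers. NASH-CH rats 2, 4, 5 and 6 exceeded every control rat, and rats 1 and 3 did not. On the log2 scale it was 0.17 above control in NASH (adjusted p = 0.755), while NASH-CH livers were 0.45 above it (SE 0.24, interval -0.043 to 0.95, adjusted p = 0.199), neither passing.

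The ferritin genes had lower means in NASH-CH, without a call. Fth1 (ENSRNOG00000022619) encodes the heavy chain, which oxidises iron, and Ftl1 (ENSRNOG00000031506) the light chain, which helps to form the mineral core. Fth1 lay between 282 and 449 CPM in control, 305 and 354 CPM in NASH and 271 and 358 CPM in NASH-CH livers. Ftl1 lay between 334 and 464 CPM in control, 311 and 486 CPM in NASH and 274 and 355 CPM in NASH-CH livers, where 5 of 6 rats were below every control rat. On the TMM scale, the NASH-CH log2 difference was -0.29 for Ftl1 (SE 0.12, interval -0.54 to -0.049, adjusted p = 0.0909) and -0.19 for Fth1 (adjusted p = 0.246), the latter turning to 0.071 under library size scaling. DESeq2 called the fall of Ftl1 (-0.31, adjusted p = 0.0353), and over its 11 alternatives the adjusted p ran from 0.0353 to 0.866. In NASH the difference was -0.055 for each gene, and it turned to 0.18 for Fth1 and 0.17 for Ftl1 under library size scaling. The log2 ratio of Fth1 to Ftl1 counts, which shows only whether the chains moved apart, ran from -0.62 to 0.38 in control, -0.65 to 0.16 in NASH and -0.36 to 0.33 in NASH-CH livers, and the groups overlapped. Ferritin genes have near-identical copies in the genome, and their expected counts were fractional in these tables, so that reads may be split between copies and these values are uncertain.

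Whether Hamp followed its signals from rat to rat was asked within groups, on log2 CPM with the group mean removed. Over 18 rats, 4 relations were computed and none passed a two-sided permutation test with 100000 permutations within groups. Hamp had a Pearson r of 0.12 (rho = 0.14) with Id1 and 0.10 (rho = 0.015) with Smad7, an inhibitory SMAD that the same signal induces, and the permutation p adjusted over the 4 was 0.737 for each r. When 1 rat was left out, r ran from 0.022 to 0.34 with Id1, -0.076 to 0.27 with Smad7, 0.23 to 0.47 with Socs3 and -0.53 to -0.14 with Bmp6. With Socs3, a STAT3 target, r was 0.37 (rho = 0.36, permutation adjusted p = 0.668). With Bmp6 r was -0.28 (rho = -0.36, permutation adjusted p = 0.737), and the relation did not pass. When control rat 3 and NASH-CH rat 5, the rats farthest from the median of Hamp, were left out, r with Bmp6 became -0.75 (permutation adjusted p = 0.0054), while it became 0.38 with Id1, 0.14 with Smad7 and 0.35 with Socs3. The relation of Hamp and Bmp6 thus changed its call with 2 rats that had low Hamp and low Bmp6 for their groups.

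Within each group alone, 12 relations were computed and none passed. The strongest r were 0.81 with Socs3 among NASH-CH livers (p = 0.0556 by exact permutation, adjusted p = 0.6) and -0.76 with Bmp6 among NASH livers (p = 0.1 by exact permutation, adjusted p = 0.6). By rank both were weaker, with rho = 0.66 and -0.37. Bmp6 had only 25 to 43 counts per NASH library. In control and NASH-CH rats, r with Bmp6 was -0.30 and -0.17, and rho was -0.54 and 0.20. For Id1 the sign differed among groups, with r of 0.41 in control rats, 0.48 in the NASH group and -0.25 in the NASH-CH group.

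**Figure D3:**
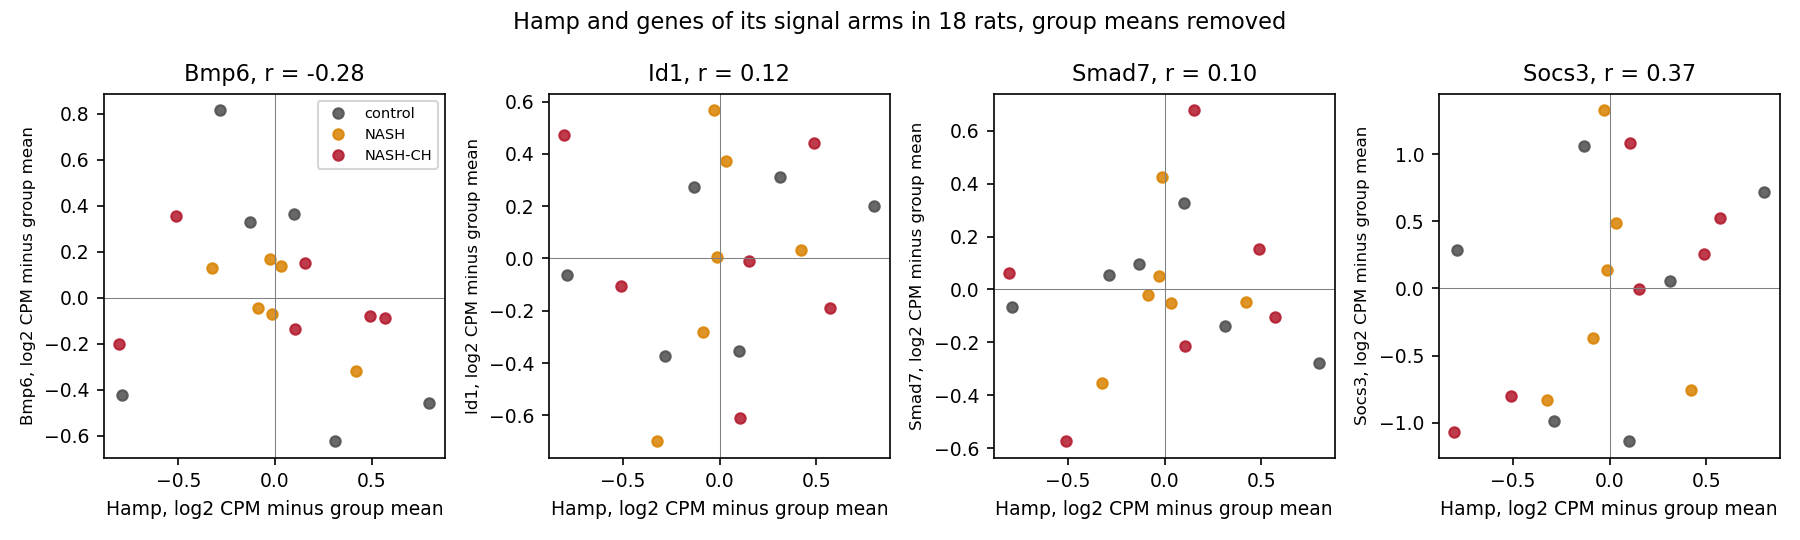
Hamp (x axis) against Bmp6, Id1, Smad7 and Socs3 (y axes) as log2 CPM minus the group mean, with 1 point per rat and a colour per group. Pearson r over the 18 rats was -0.28, 0.12, 0.10 and 0.37, and none passed the permutation test. The points of lowest Hamp, control rat 3 and NASH-CH rat 5, lie below 0 for Bmp6.

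Among the other members, Tfr2 went most closely with Hamp within groups, with r = 0.65 over 18 rats, followed by Hfe with 0.40. The remaining members had r from -0.28 to 0.12. Of 5216 genes with a mean of at least 10 CPM, those with the highest r to Hamp were Lypla2 (0.78), Cldn12 (0.77), Apoa2 (0.75), Ociad1 (0.74) and Stau1 (0.72). These r are descriptions over rats that share library and scaling, and with library size scaling r of Stau1 was 0.56. Apoa2, an apolipoprotein made by hepatocytes, spanned 54.6 to 607 CPM, and the other 4 genes varied less.

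In the BMP-SMAD list, which holds ligands, receptors, co-receptors and SMAD targets upstream or beside Hamp, 2 of 19 genes tested rose in NASH, where 3.12% of all genes passed, and 1 rose in NASH-CH, where 8.38% of all genes rose. None fell in either model, with a median log2 fold change of 0.19 and 0.14. Neo1, neogenin, a partner of hemojuvelin at the hepatocyte surface, lay between 8.28 and 13.1 CPM in control, 13.1 and 16.5 CPM in NASH and 13.1 and 16.6 CPM in NASH-CH livers. Every rat of either model exceeded every control rat. Neo1 rose by 0.50 in NASH (SE 0.11, adjusted p = 0.026), and by 0.47 in NASH-CH (SE 0.11, adjusted p = 0.0084). The NASH call held in 12 of 18 fits without 1 rat and was lost under the replicate block, and the NASH-CH call held in all of these fits. Bmpr2, a type II BMP receptor, rose by 0.50 in NASH (adjusted p = 0.0418), a call that held in 5 of 18 fits without 1 rat and 8 of 11 alternatives, and was 0.17 above control in NASH-CH (adjusted p = 0.394).

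Set against NASH livers, NASH-CH livers had less of 2 BMP-SMAD genes of the 19, where 4.20% of all genes passed. Bmp2, a second hepatic BMP ligand, was lower by -0.68 on the log2 scale (adjusted p = 0.0451) and Smad6, an inhibitory SMAD, by -0.89 (SE 0.22, adjusted p = 0.0232). Bmp2 lay between 8.29 and 13.9 CPM in NASH and 4.96 and 9.70 CPM in NASH-CH livers, and Smad6 between 1.68 and 2.57 CPM and between 0.636 and 1.93 CPM. Against control neither gene passed, with Smad6 at 0.37 in NASH and -0.52 in NASH-CH. The call of Bmp2 held in 7 of 18 fits without 1 rat and in 5 of 11 alternatives, being lost with edgeR among others, and that of Smad6 in 15 fits and 10 alternatives. Hfe2, the row of hemojuvelin, gave -0.58 in NASH (adjusted p = 0.102), NASH-CH livers gave -0.55 (adjusted p = 0.0638), and Tmprss6, the protease that removes hemojuvelin, gave -0.26 and -0.34, neither passing.

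The IL-6 and STAT3 list of 9 genes held 1 that passed in NASH-CH, where 17.0% of all genes did, and 0 passed in NASH (3 without adjustment, 0 with edgeR, 1 with DESeq2). Lbp, the acute phase protein that binds bacterial lipopolysaccharide, lay between 24.3 and 54.4 CPM in control, 43.6 and 77.9 CPM in NASH and 91.7 and 312 CPM in NASH-CH livers. No NASH-CH rat overlapped with either other group. Lbp rose 4.06-fold in NASH-CH, or by 2.02 on the log2 scale (SE 0.26, adjusted p = 3.29e-05), and by 1.26 over NASH (SE 0.26, adjusted p = 0.0084). The other 8 genes did not pass against control, with Stat3 at 0.44 (adjusted p = 0.144) and Socs3 at 0.65 (adjusted p = 0.332) in NASH-CH, and the median of the 9 was 0.25 there. Mean levels of Fgb were close, at 4609 CPM in control and 4582 CPM in NASH-CH livers, and those of Jak2 were 13.9 and 14.9 CPM. Il6 itself was low, at 0 to 1.29 CPM in control, 0 to 0.342 CPM in NASH and 0.239 to 2.34 CPM in NASH-CH livers. Its counts were 0 to 36 in control, 0 to 10 in NASH and 11 to 180 in the deeper NASH-CH libraries.

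In the list of uptake, ferritin turnover and iron regulatory proteins, 2 of 14 genes tested rose and 1 fell in NASH-CH, near the 17.0% of all genes that passed there, and 0 passed in NASH (4 without adjustment, 0 with edgeR or DESeq2) or between the models (5 without adjustment, 0 with edgeR, 2 with DESeq2). Slc39a14, ZIP14, which takes up iron not bound to transferrin into hepatocytes, lay between 117 and 180 CPM in control, 154 and 223 CPM in NASH and 188 and 292 CPM in NASH-CH livers. Every NASH-CH rat exceeded every control rat. It rose 1.69-fold in NASH-CH, by 0.76 on the log2 scale (SE 0.14, adjusted p = 0.0014), and was 0.31 above control in NASH (adjusted p = 0.176). Slc39a8, the related metal transporter ZIP8, fell by 0.47 in NASH-CH (SE 0.095, adjusted p = 0.0030), with 25.9 to 37.1 CPM against 41.1 to 50.5 CPM in control livers and no overlap. Heph, hephaestin, a copper enzyme that oxidises iron leaving the cell through ferroportin, lay between 0.810 and 1.59 CPM in control, 1.59 and 2.14 CPM in NASH and 1.99 and 4.19 CPM in NASH-CH livers. It rose by 0.93 in NASH-CH (SE 0.21, adjusted p = 0.0066), while Cp, the plasma ferroxidase ceruloplasmin, gave 0.26 (adjusted p = 0.250). Aco1 and Ireb2, the iron regulatory proteins, gave 0.14 and -0.068 in NASH-CH and did not pass.

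Of 10 genes of heme capture, breakdown and export, 1 rose and 4 fell in NASH-CH, beside 17.0% of all genes that passed, and 1 fell in NASH, beside 3.12%. Hpx, hemopexin, the plasma carrier of free heme, rose by 0.54 (SE 0.17, adjusted p = 0.0341). Cd163, the macrophage receptor of haptoglobin-bound hemoglobin, fell by 0.48 (adjusted p = 0.0304), together with the macrophage markers Marco, Clec4f, Vsig4 and Cd5l. Blvrb, biliverdin reductase B, fell by 0.38 (adjusted p = 0.0164), and the heme exporter Flvcr1 by 0.91 (adjusted p = 0.0315). Flvcr1 was a low gene, with 7 to 24 counts per control library and 10 to 45 per NASH-CH library. It lay between 0.436 and 0.925 CPM in control and 0.218 and 0.584 CPM in NASH-CH livers. Slc46a1, which carries folate and heme, fell by 0.89 (adjusted p = 0.0216). In NASH, Blvra, biliverdin reductase A, fell by 0.46 (adjusted p = 0.0407). Hmox1, heme oxygenase 1, was 0.56 above control in NASH (adjusted p = 0.0808), while NASH-CH livers gave 0.30 (adjusted p = 0.259), and neither passed. The list's median was -0.075 in NASH and 0.026 in NASH-CH. Of these calls, that of Blvrb held in all 18 fits without 1 rat, those of Slc46a1, Hpx, Cd163, Flvcr1 and Blvra in 16, 13, 13, 12 and 7. Library size only ended the calls of Cd163, Blvrb, Flvcr1 and Blvra. The fit of 2 groups alone ended those of Hpx, Slc46a1 and Flvcr1. Cd163 was also lost with sample quality weights, Flvcr1 with the replicate block and Blvra without the filter on low counts.

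**Figure D4:**
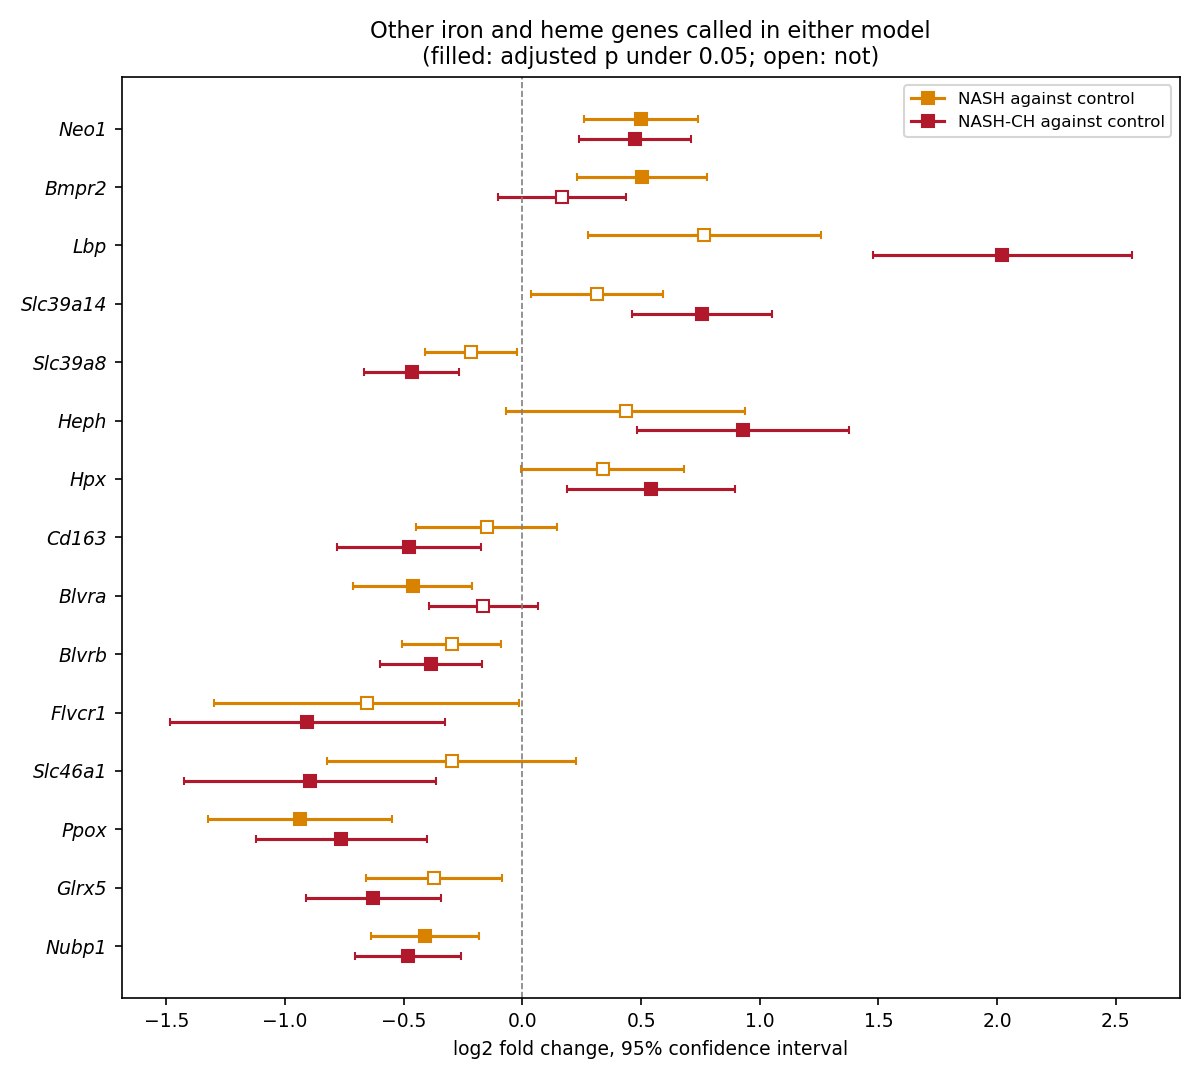
Log2 fold change (x axis) with 95% confidence interval of the 15 listed iron and heme genes (y axis) that passed the test in NASH or in NASH-CH against control. Filled squares passed and open squares did not. Lbp lies farthest right (2.02 in NASH-CH), and Flvcr1, Slc46a1 and Ppox lie farthest left. Flvcr1 was a low gene, with at most 0.925 CPM in control livers.

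In heme synthesis, 1 of 8 genes passed in NASH and in NASH-CH, where 3.12% and 17.0% of all genes did, and 0 passed between the models, also with edgeR or DESeq2 or without adjustment. Ppox, protoporphyrinogen oxidase, lay between 9.54 and 18.8 CPM in control, 5.45 and 10.3 CPM in NASH and 6.12 and 10.99 CPM in NASH-CH livers. It fell by 0.94 in NASH (SE 0.18, adjusted p = 0.0118), and NASH-CH livers fell by 0.76 (SE 0.17, adjusted p = 0.0057), and all 6 rats of each model lay below the control mean. Alas1, the rate-limiting enzyme of the pathway, spanned 232 to 544 CPM in control, 261 to 931 CPM in NASH and 293 to 731 CPM in NASH-CH livers, and its values of 0.77 and 0.51 did not pass (adjusted p = 0.156 and 0.280). Erythroid markers, which would mark blood in the samples, were low, with a summed level of 0.825 to 5.65 CPM in control, 0.600 to 6.48 CPM in NASH and 0.546 to 2.56 CPM in NASH-CH livers, and 0 of 3 tested passed (0 without adjustment in NASH, 1 in NASH-CH).

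Of 9 genes of iron-sulphur cluster assembly reported here, 2 fell in NASH-CH, where 17.0% of all genes passed in either direction, none rose, and the median was -0.17. Glrx5, a glutaredoxin that passes clusters on, lay between 25.3 and 38.8 CPM in control, 20.5 and 30.1 CPM in NASH and 14.9 and 26.8 CPM in NASH-CH livers. All but 1 of the 6 NASH-CH rats were below every control rat. Glrx5 fell by 0.63 in NASH-CH (SE 0.14, adjusted p = 0.0046), and Nubp1, a scaffold of cytosolic assembly, by 0.48 (SE 0.11, adjusted p = 0.0051). In NASH, Nubp1 fell by 0.41 (adjusted p = 0.0448), a call that held in 5 of 18 fits without 1 rat, and Glrx5 gave -0.37 (adjusted p = 0.124). Iscu and Nfs1, the scaffold and the sulphur donor, gave -0.25 and -0.13 in NASH-CH and did not pass.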

How the data were processed

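Liver RNA of 6 control, 6 NASH and 6 NASH-CH rats was profiled by RNA sequencing. The authors trimmed adapters with Trim Galore, aligned reads to Rnor_6.0 with STAR in 2 passes, quantified genes with RSEM and Ensembl 95, and deposited RSEM expected counts per rat, not normalised for depth or length. Tool versions are not given in the sources used here. Samples were grouped by their labels. Each table held between 2130 and 2522 expected counts that were not whole, and all were rounded.

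Rounded counts were scaled by TMM (edgeR 4.0.16), filtered by filterByExpr and tested with limma-voom (limma 3.58.1, R 4.3.3) in 1 fit of 18 rats, with Benjamini-Hochberg adjustment over 12904 genes and a threshold of 0.05. CPM shown use the TMM-scaled totals, and relations use log2 CPM with a prior count of 2. Relations were tested by permutation in scipy 1.17.1. The pipeline was checked on simulated data.

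The members and lists were chosen with earlier results of these data known. All members, the genes of each list (iron, heme and cell type markers) with an adjusted p under 0.05 in any comparison, and the 5 genes most like Hamp were named. Results for some listed genes are not reported here, and the counts of lists leave them out. Genes named without a call were chosen after their values were seen. Alternatives were DESeq2 1.42.0, the quasi-likelihood test of edgeR, size factors of DESeq2 in limma-voom, library size only, no filter or at least 10 counts in every sample, 2 groups only, quality weights, a replicate block, thinned NASH-CH counts, summed rows and leaving out each rat.

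Depth ran from 19498534 to 60117822 counts per rat. Nothing in the labels says whether rats numbered alike were handled together. No pair of rats of a group agreed within counting error, and no rat was left out. The promoter table is of another build (GRCr8) than the counts.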

Additional observations from a re-analysis of the deposited data

Results flagged for a closer look

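Among 33 groups of 6 rats, tested for a value that stands apart from the rest of its group, 3 were marked. Chance marks about 1 in 20 where values follow a normal distribution, which was not checked for these CPM. That rate does not hold for the sparse second row of Slc40a1, where many values were 0. The marks came from its main row and from this sparse row. In control rats, rat 5 was the highest at 55.9 CPM, and its gap to the next value of 38.5 CPM made up 0.769 of the range of the group. In the sparse second row of Slc40a1, control rat 1 was the highest at 1.75 CPM with the next rat at 0. Its share of 1.0 of the range was certain, because no other control rat was above 0. NASH-CH rat 6 was the highest of its group in that row at 3.29 CPM with the next at 0.741 CPM, a share of 0.775. These marks of the sparse row carry no weight as evidence.

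The effects against control differed between NASH-CH and NASH for 3 genes of the iron and heme lists, by the direct test between the models in limma-voom. In that test 4.20% of all genes passed. The 3 were 2 of 19 genes of the BMP-SMAD list and 1 of 9 of the IL-6 and STAT3 list. In the other lists 0 of 14, 10, 8 and 9 genes passed, and the lists were not tested as a set. The log2 effect in NASH-CH minus that in NASH was -0.685 for Bmp2, -0.893 for Smad6 and 1.26 for Lbp. The call of Bmp2 held in 5 of 11 alternatives. No member passed that test.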

How the results depend on the processing

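Counts of members called in NASH-CH against control moved from 1 to 2 with DESeq2, to 4 with library size only, and to 0 with the 2 groups alone, sample quality weights, a replicate block or NASH-CH counts thinned to the control depth. In NASH the count moved from 0 to 2 with library size only. It ran from 0 to 1 in either comparison when 1 rat was left out. Between NASH-CH and NASH it was 0 under every alternative. Against control, library size only also shifted genes at large upward, to a median of 0.27 in NASH-CH and 0.23 in NASH. With TMM scaling these medians were 0.013 and 0.0072. How many of all genes passed with library size only is not given here. The counts of 4 and 2 members therefore cannot be read as particular to the iron genes.

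Library size only reversed Tf (0.11), Fth1 (0.18) and Ftl1 (0.17) in NASH, and Tfr2 (0.19) and Fth1 (0.071) in NASH-CH. Sample quality weights reversed Tfr2 in NASH-CH (0.071). Between NASH-CH and NASH, thinning reversed Slc40a1 (-0.0037), and the second row of Slc40a1 turned to 0.12 with edgeR, 0.11 with DESeq2 and 0.0018 with thinning. None of these members was called in the comparison named, and the cause was not tested.

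Without 1 rat in turn, log2 fold changes crossed 0 only where the member was not called in that comparison. In NASH they ran from -0.23 to 0.016 for Tf, -0.037 to 0.10 for Tfr2, -0.11 to 0.022 for Fth1 and -0.13 to 0.0022 for Ftl1. In NASH-CH they ran from -0.037 to 0.15 for Tf, -0.17 to 0.051 for Tfr2 and -0.23 to 1.88 for the second row of Slc40a1. Between the models they ran from -0.19 to 0.041 for Tfrc, -0.041 to 0.081 for Slc40a1, -1.87 to 0.11 for its second row and -0.013 to 0.17 for Hfe.

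The r of Hamp with Bmp6 became -0.75 without the 2 rats farthest in Hamp. With Smad7 it ran from -0.076 to 0.27 without 1 rat.

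The replicate block ended the call of Slc40a1 in NASH-CH (0.41, adjusted p = 0.0700) and turned r of Hamp with Id1 to -0.0045. It also ended the calls of Neo1, Bmpr2 and Nubp1 in NASH, Flvcr1 in NASH-CH and Bmp2 between the models. Rats share numbers across groups, and nothing says that they were paired. Their deviations from the group mean had a mean correlation of 0.052 (NASH with control), 0.073 (NASH-CH with control) and 0.015 (NASH-CH with NASH), with 2, 1 and 0 of 6 pairs over 0.1.

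Of 21 calls of listed iron and heme genes, 8 held under every alternative and in every fit without 1 rat, and 0 reversed. The 8 were Neo1, Lbp, Slc39a14, Heph, Ppox and Glrx5 in NASH-CH, Ppox in NASH and Lbp between the models. Blvrb, Slc39a8 and Nubp1 in NASH-CH were lost only with library size only. With 16 to 40 counts per control library, Bmp6 carried more counting error than the other members except the second row of Slc40a1.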
